A study of Mus musculus with 2 samples.

Results

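The genes described here are 36 mouse genes of the interferon response and of antigen presentation by MHC class I, looked up by symbol among the 27998 genes of a single-cell RNA-seq data set of cultured lung fibroblasts. All 36 were found and all had reads. By role, 5 were factors and signal regulators of the response, 21 were effectors made in response to interferon, and 10 belonged to class I antigen presentation. The first 2 roles are called the interferon-response genes below, 26 in all. Each gene was measured in 2 libraries, 1 control and 1 stimulated, with and without cells rich in macrophage RNA. Both libraries came from wild-type C57BL/6 lungs whose whole cell suspension was plated and grown to passage 3 in medium with 10% serum. The stimulated cells were then treated for 14 days, and the protocol lists 10 μM rosiglitazone, 1 μM SB4315442 and 4 μM rhBMP4, alone or combined, and a 1% ITS+3 supplement. Which of these the stimulated library received was not given in the sources used here. Control cells came from the same lung and were kept for the same time in vehicle. Neither the number of animals nor their age or sex was given in the sources used here, and plating a whole suspension left the culture open to cells other than fibroblasts.

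Interferons are secreted proteins that signal through JAK kinases and STAT transcription factors. Type I interferon assembles a complex with Stat2 and Irf9 that binds the interferon-stimulated response element in the promoters of its target genes. Interferon gamma acts through the gamma-activated site. The targets include antiviral effectors and the machinery of class I presentation, in which the proteasome cuts proteins into peptides, the Tap transporter carries them into the endoplasmic reticulum, and a heavy chain paired with beta-2-microglobulin shows them at the cell surface to CD8+ T cells. Fibroblasts make interferon beta on infection and keep a low basal level of many of these genes. Macrophages make much of the class I machinery and the immunoproteasome without infection.

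The binding letters are shown in the promoters of 5 genes that the results turn on, because interferons act on their target genes through them. Only part of the list holds them. The list is made of known interferon targets, so finding the letters in it is no independent support for it. The letters searched were TTTC, 2 bases of any kind and TTTC again for the interferon-stimulated response element and TTCNNNGAA for the gamma-activated site, on both strands, in windows from 250 bases before to 50 after each start in RefSeq's annotation of GRCm38.p6. Of the 36 genes, 31 had a window, and Ifi27, Usp18, Rtp4, Tap2 and Ifi27l2a had none. The 150 bases before the start follow, 5′ to 3′ on the gene's strand, with the response element letters in capitals on whichever strand they lie; overlapping matches run together.
Isg15, chr4:156200819-156200968, minus strand: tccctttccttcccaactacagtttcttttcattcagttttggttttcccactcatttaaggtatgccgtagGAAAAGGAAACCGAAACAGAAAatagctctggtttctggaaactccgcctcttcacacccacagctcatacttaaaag
Ifit1, chr19:34640739-34640888, plus strand: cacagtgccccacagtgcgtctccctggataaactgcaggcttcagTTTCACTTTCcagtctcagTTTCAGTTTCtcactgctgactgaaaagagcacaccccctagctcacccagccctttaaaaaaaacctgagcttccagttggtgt
B2m, chr2:122147537-122147686, plus strand: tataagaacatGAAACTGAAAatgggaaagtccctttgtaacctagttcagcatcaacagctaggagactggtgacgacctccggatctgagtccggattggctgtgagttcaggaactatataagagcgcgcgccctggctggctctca
Ifitm2, chr7:140955962-140956111, minus strand: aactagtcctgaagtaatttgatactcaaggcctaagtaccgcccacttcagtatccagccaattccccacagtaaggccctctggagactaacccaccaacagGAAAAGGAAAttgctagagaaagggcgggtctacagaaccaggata
H2-D1, chr17:35262944-35263093, plus strand: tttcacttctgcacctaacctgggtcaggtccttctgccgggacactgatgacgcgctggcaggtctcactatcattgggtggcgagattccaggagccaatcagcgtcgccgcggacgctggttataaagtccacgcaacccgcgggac

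Isg15, a ubiquitin-like protein modifier, held 3 overlapping matches, which began 78, 72 and 66 bases before the start. Ifit1, which binds viral RNA lacking host cap marks, held 2 matches, at 104 and 85 bases before the start. B2m, the light chain of every class I molecule, held 1 match at 139 bases before the start, and Ifitm2, a membrane protein that hinders virus entry, held 1 at 46 bases. H2-D1, a class I heavy chain, held no match in its window, although its printed bases open with tttcacttct, which differs from the letters only near its end. The response element letters occurred in 13 of the 31 genes, 41.9%, and in 13 of their 38 windows, 34.2%, against 3.44% of all 32851 promoter windows. They occurred in 11 of the 22 interferon-response genes with a window and in 2 of 9 class I genes, B2m and H2-T23. Of the genes described below, both that were higher in the stimulated library held them, Stat2 and Ifitm2, and so did 2 of the 6 lower genes with a window, Isg15 and Bst2. The gamma-activated site letters occurred in 8 of the 38 windows, 21.1%, against 8.30% of all windows. Psmb9 and Tap1 lie head to head on opposite strands and share 275 bases of their windows. A match is a match of letters only, and no binding was measured here. The search allowed no mismatch, so a window without a match was not shown to lack a response element.

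The deposited matrices held 5016 control and 7698 stimulated barcodes. Cells with at least 500 genes and at most 20% mitochondrial UMIs were kept, 4703 control cells with a median of 19634 UMIs and 7468 stimulated cells with a median of 15379.5. A UMI is 1 counted RNA molecule, read at its 3′ end, so a count does not grow with transcript length. Macrophage-sum cells were cells with at least 10 UMIs per 10000 of C1qa, C1qb, C1qc, Tyrobp and Fcer1g in sum, none of which is among the 36 genes. There were 164 such cells in the control library, 3.49% of kept cells, and 2 in the stimulated library, 0.0268%. Without them the 5 genes still summed to 22.4 CPM in the control library and to 0.589 CPM in the stimulated one, CPM being UMIs per 1000000 UMIs of the library. Both libraries held fibroblast markers, at a sum of 5519 and 2110 CPM over 9 genes, and all 9 were detected in both. Epithelial markers summed to 0.226 and 0.145 CPM over 6 genes, with Nkx2-1 at 0 in both libraries. The 6 lymphocyte markers found summed to 0.666 and 0.111 CPM, with Cd3e and Cd3g at 0 in both libraries. Mesothelial markers summed to 25.8 and 24.2 CPM, and endothelial markers to 11.9 and 12.4 CPM. The libraries shared 46 barcodes among kept cells. With 1 library per group there is no test between the groups. Every interval below is a 95% interval for counting error only, and treatment and library cannot be told apart.

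Of the 36 genes, 16 averaged under 5 CPM over both libraries, and the 20 at or above that level, which were compared, were more often lower than higher in the stimulated library. At least 1.5-fold higher were 2 genes, Stat2 and Ifitm2, and at least 1.5-fold lower were 7, Isg15, Ifi27l2a, Bst2, Xaf1, H2-K1, H2-D1 and Tapbp. The remaining 11 lay between. The same 9 genes were past 1.5-fold with all kept cells and without macrophage-sum cells. Over all 8787 genes compared, 7.75% were higher and 12% were lower at this fold, and without macrophage-sum cells the shares were 7.85% and 11.7% of 8759 genes. The median log2 fold of the 20 genes was -0.43 (-0.66 to -0.20 over the genes) with all kept cells, against -0.06 over all genes. Without macrophage-sum cells it was -0.38 (-0.63 to 0.02), against -0.06 over all genes. TMM scaling raised every log2 fold by 0.10 and turned the split over all genes to 10.2% higher and 9.41% lower; the 36 genes then had 2 higher and 4 lower, and Bst2, Xaf1 and Tapbp fell short of the fold. Within roles, 1 of 2 factors compared was higher, 1 of 11 effectors was higher and 4 lower, and 3 of 7 class I genes were lower with none higher.

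**Figure D1:**
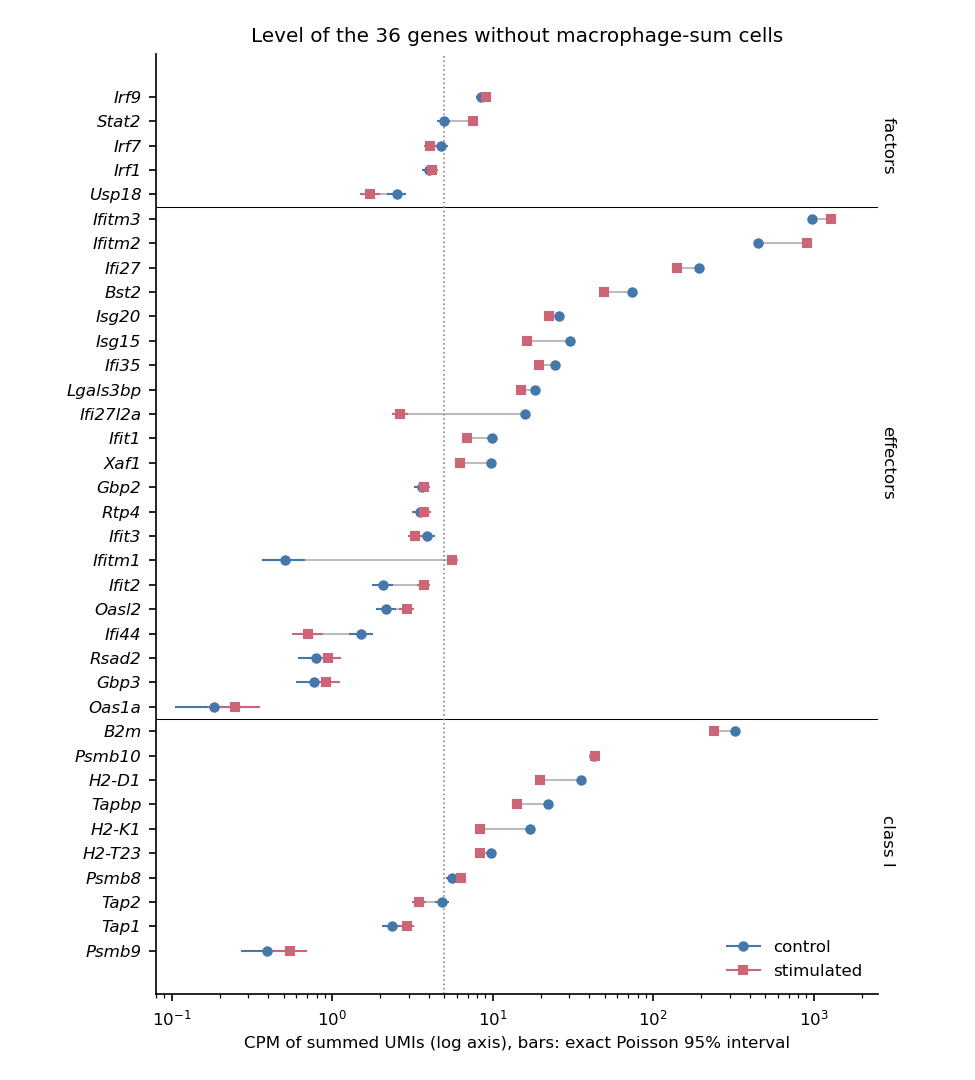
Level of each of the 36 genes in the control (circles) and stimulated (squares) library, in CPM on a log axis, without macrophage-sum cells. Bars are exact Poisson 95% intervals, the dotted line marks 5 CPM, and genes are ordered by level within each role. Ifitm2 and Ifitm3 stand highest and lie to the right in the stimulated library, while Ifi27l2a, Isg15, H2-K1 and H2-D1 lie to the left.

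**Figure D2:**
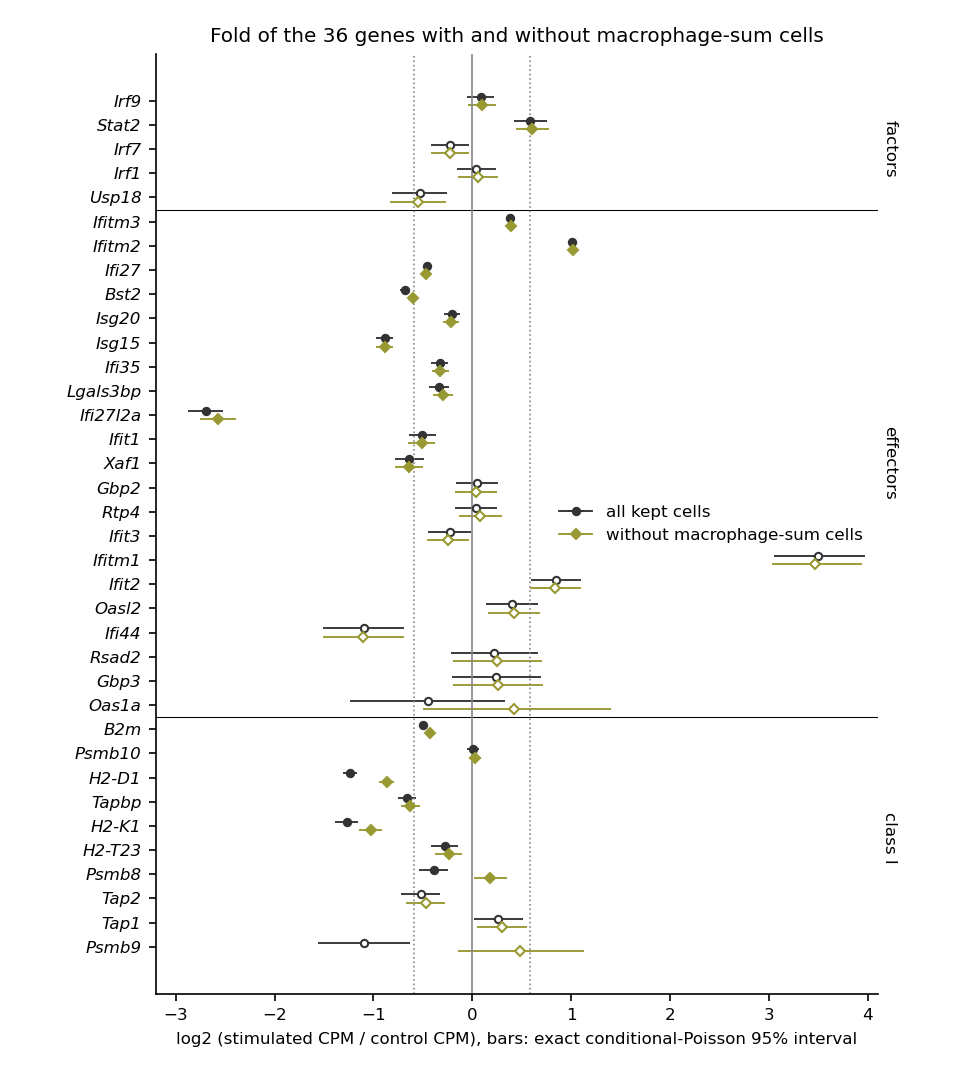
Stimulated over control fold of each gene on the log2 scale, with all kept cells (black circles) and without macrophage-sum cells (diamonds). Bars are exact conditional-Poisson 95% intervals, dotted lines mark 1.5-fold, and open symbols are genes under the 5 CPM mean. Psmb8, Psmb9 and Oas1a change side of the middle line between the cell sets, and H2-D1 and H2-K1 move toward it.

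Among the factors, Stat2, a subunit of the type I complex, was at 5.04 CPM (control) and 7.56 CPM (stimulated). The fold was 1.501 (1.34 to 1.69) with all kept cells and 1.52 (1.36 to 1.71) without macrophage-sum cells, at the edge of the threshold. It went down to 1.35 with the alternatives tried, among them thinning every cell to 5000 UMIs. Irf9, the DNA-binding subunit of that complex, was at 8.58 and 9.11 CPM, a fold of 1.06 (0.967 to 1.17) whose interval includes 1. Irf7, the factor that amplifies type I interferon production, was at 4.80 and 4.096 CPM, and Irf1, a factor induced by interferon gamma, at 4.08 and 4.20 CPM. Usp18, which removes Isg15 from proteins and dampens the receptor, was at 2.51 and 1.73 CPM, a fold of 0.691 (0.568 to 0.840). These last 3 were under the 5 CPM mean and were not compared. So in neither library did a factor exceed 10 CPM, and the 1 called difference was in Stat2.

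The effectors compared differed in both directions, and Ifitm2 and Ifitm3 were the 2 with folds above 1. Ifitm2 was at 453 CPM (control) and 910 CPM (stimulated), 2.01-fold higher (1.98 to 2.03). Ifitm3, its close relative and the most counted of the 36 genes, was at 979 and 1278 CPM, a fold of 1.31 (1.295 to 1.32) that stayed under the threshold. Ifitm1 was at 0.497 CPM (control) and 5.61 CPM (stimulated), from 44 and 658 UMIs. Its fold of 11.3 (8.32 to 15.7) was the highest of the 36, but its mean was under 5 CPM and 36.4% of its 3′ windows also match another gene, Gm7676, itself at 0.0903 and 0.384 CPM. All 3 folds were nearly the same without macrophage-sum cells, at 2.02, 1.32 and 11.1. In sum the 3 Ifitm genes were at 1421 CPM (control) and 2193 CPM (stimulated) without those cells.

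The small membrane proteins of the Ifi27 family were lower in the stimulated library or lay between. Ifi27l2a was at 17.2 CPM (control) and 2.66 CPM (stimulated), 6.48-fold lower (5.73 to 7.34). Without macrophage-sum cells the control level was 15.8 CPM and the gene was 5.95-fold lower (5.26 to 6.75). Ifi27l2a therefore had the largest fold among the genes compared in both cell sets. Ifi27 was at 193 and 140 CPM, a fold of 0.727 (0.711 to 0.743) that did not reach the threshold.

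Isg15, whose promoter is shown above, was at 30.3 CPM (control) and 16.4 CPM (stimulated). It was 1.85-fold lower (1.74 to 1.96) in both cell sets. Bst2, the tetherin that holds budding virus at the cell surface, was at 78.6 and 49.1 CPM, 1.60-fold lower (1.55 to 1.66). Without macrophage-sum cells Bst2 was at 74.4 CPM in the control library and 1.51-fold lower (1.46 to 1.57), just past the threshold. Xaf1, a proapoptotic partner of the inhibitor XIAP, was at 9.79 and 6.30 CPM, 1.55-fold lower (1.41 to 1.72), and 1.56-fold without those cells.

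The remaining 4 effectors compared did not reach the threshold. Isg20, an RNA exonuclease, was at 25.8 and 22.4 CPM, a fold of 0.868 (0.821 to 0.919). Ifi35 was at 24.4 and 19.4 CPM, a fold of 0.796 (0.751 to 0.845), and Ifit1 at 9.84 and 6.94 CPM, a fold of 0.705 (0.640 to 0.776). Lgals3bp, a secreted glycoprotein that binds galectins, was at 18.9 and 14.97 CPM, a fold of 0.791 (0.740 to 0.847). Each of these 4 lay below 1 in both cell sets.

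The 10 effectors under the 5 CPM mean included several of the best known antiviral genes. Rsad2, which makes a chain-terminating nucleotide, had 72 and 111 UMIs in all, 0.813 and 0.947 CPM. Oas1a, an oligoadenylate synthetase, had 30 and 29 UMIs, and 63.6% of its 3′ windows also match another gene. Ifit2 was at 2.07 and 3.71 CPM and Ifit3 at 3.87 and 3.30 CPM, so the Ifit genes did not share a direction. Of the 3′ windows of Ifit3, 18.2% also match another gene, Ifit3b, itself at 1.04 and 0.853 CPM. Ifi44 was at 1.51 and 0.708 CPM, and Oasl2 at 2.21 and 2.92 CPM. Gbp2, a guanylate-binding protein, was at 3.60 and 3.71 CPM and Gbp3 at 0.779 and 0.922 CPM. Rtp4 was at 3.66 and 3.75 CPM.

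In the class I pathway the 2 classical heavy chains were lower in the stimulated library and the light chain was nearer to 1. H2-K1 was at 20.2 CPM (control) and 8.38 CPM (stimulated), 2.41-fold lower (2.23 to 2.61). Without macrophage-sum cells it was at 17.1 and 8.37 CPM, 2.04-fold lower (1.88 to 2.21). H2-D1 was at 46.3 and 19.6 CPM, 2.36-fold lower (2.24 to 2.48). Without those cells it was at 35.8 and 19.6 CPM, 1.82-fold lower (1.73 to 1.93). Leaving them out thus brought the H2-D1 fold closer to 1 and left it past the threshold. H2-T23, the nonclassical heavy chain Qa-1, was at 10.1 and 8.30 CPM, a fold of 0.823 (0.751 to 0.903). Of the 3′ windows of H2-D1, H2-K1 and H2-T23, 13.6%, 13.1% and 18.2% match other genes, so part of their counts is uncertain. H2-T22, among the genes that H2-D1 and H2-K1 windows match, was at 65.2 CPM (control) and 122 CPM (stimulated). B2m was at 338 CPM (control) and 240 CPM (stimulated), a fold of 0.708 (0.697 to 0.720), and at 323 and 240 CPM without macrophage-sum cells, a fold of 0.742 (0.730 to 0.754).

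Tapbp, the tapasin that loads peptides onto heavy chains, was at 22.5 and 14.3 CPM, 1.58-fold lower (1.48 to 1.69), and 1.54-fold lower without macrophage-sum cells. Tap1 and Tap2, the paired subunits of the peptide transporter, were under the 5 CPM mean, at 2.44 and 2.93 CPM for Tap1 and at 5.002 and 3.49 CPM for Tap2. The folds of the immunoproteasome subunits Psmb8 and Psmb9, but not that of Psmb10, crossed 1 between the cell sets. Psmb8 was at 8.33 and 6.35 CPM with all kept cells, a fold of 0.762 (0.687 to 0.845), and at 5.60 and 6.35 CPM without macrophage-sum cells, a fold of 1.13 (1.01 to 1.27). Psmb9 had 103 and 64 UMIs with all kept cells and 34 and 64 without, which took its fold from 0.470 (0.338 to 0.648) to 1.40 (0.907 to 2.18). Psmb10 was at 43.3 and 43.6 CPM, a fold of 1.00 (0.963 to 1.05). Oas1a turned in the same way, from 0.731 (0.423 to 1.26) to 1.34 (0.706 to 2.65). In sum the 10 class I genes were at 497 and 347 CPM with all kept cells and at 463 and 347 CPM without, folds of 0.697 and 0.748.

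The macrophage-sum cells held 1.88% of the control UMIs and a far larger share of some of these genes. Compared within the control library, 14 of the 25 genes that averaged 5 CPM or more over the pair of cell sets were at least 1.5-fold higher in them and 1 was lower, where 20.2% of all 9043 genes were higher and 25.3% lower. All 9 class I genes compared were among the 14, as were 5 of 16 interferon-response genes. Of the 14, Psmb9, Tap2, Rtp4 and Stat2 were under 5 CPM in other control cells and entered the comparison only through their level in macrophage-sum cells, so the filter favoured their call. Psmb9 was at 41.4 CPM in macrophage-sum cells and at 0.391 CPM in other control cells, and 67.0% of its control UMIs lay in those 164 cells. Psmb8 was at 150 and 5.60 CPM, 26.8-fold higher (22.96 to 31.3), with 34.0% of its UMIs there. H2-D1 was at 593 and 35.8 CPM, 16.6-fold higher (15.4 to 17.8), and H2-K1 at 183 and 17.1 CPM, 10.7-fold higher (9.43 to 12.1). These 4 genes show how a small set of cells can carry a visible part of a library's level. B2m differed less, at 1137 and 323 CPM, as did Bst2 at 302 and 74.4 CPM and Ifi27l2a at 89.9 and 15.8 CPM. Isg15 was at 29.4 and 30.3 CPM, a fold of 0.969 (0.715 to 1.28), and Isg20 was lower, at 10.8 and 26.1 CPM. Fibroblast RNA was also counted in these cells, with Col1a1, the fibrillar collagen chain, at 628 CPM in them and 2433 CPM in other control cells.

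**Figure D3:**
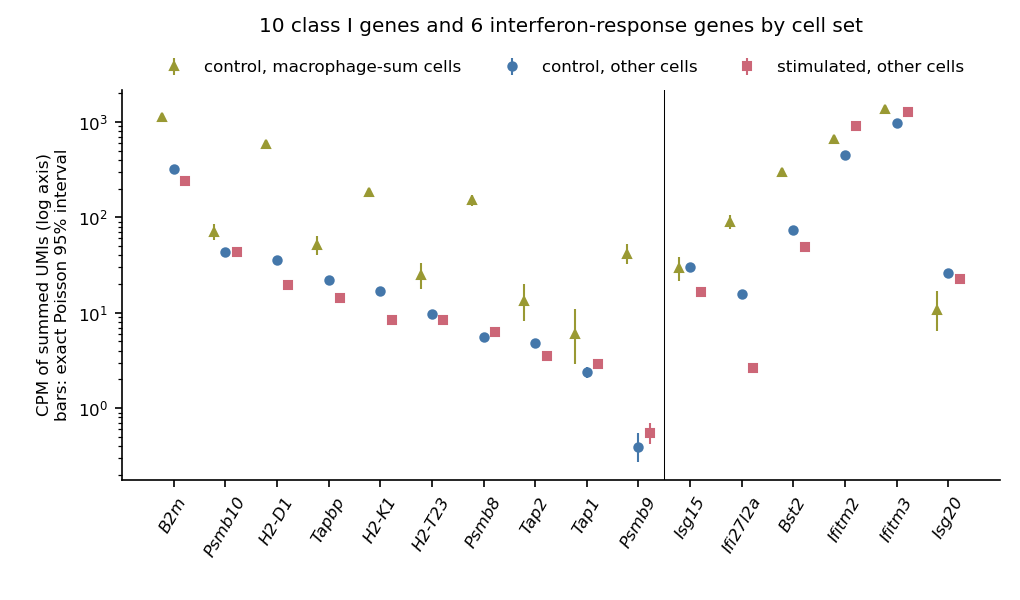
CPM on a log axis of the 10 class I genes (left of the line) and 6 interferon-response genes in control macrophage-sum cells (triangles), other control cells (circles) and other stimulated cells (squares). Bars are exact Poisson 95% intervals. Psmb8, Psmb9, H2-K1 and H2-D1 stand far above the other cells in macrophage-sum cells, while Isg15 does not and Isg20 lies below.

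Some macrophage RNA was also counted outside these cells. The 5 sum genes were at 14459 CPM in macrophage-sum cells and at 22.4 CPM in other control cells, 0.155% of that level. If every gene were carried along at that ratio, the carried part would be 16.3% of the Psmb9 level in other control cells, 7.05% of Oas1a, 4.152% of Psmb8, 2.57% of H2-D1 and 1.65% of H2-K1. For every other gene of the 36 it would be under 1%. With that part subtracted, the stimulated over control fold was 0.563 for H2-D1, 0.498 for H2-K1, 1.18 for Psmb8 and 1.67 for Psmb9. The ratio came from the same 5 genes that set the cell filter, which caps their level in every other cell. It therefore gives no independent measure of the macrophage RNA left there, and the part of that RNA in these folds was not tested. Control cells with no UMI of the 5 genes held 463 CPM of the 10 class I genes, and cells with up to 2 UMIs per 10000 held 459 CPM. In the 43 cells with 5 to 10 per 10000 the level was 820 CPM (690 to 968), and H2-D1 was at 106 CPM against 35.7 CPM in cells with none. Those 43 cells were shallow, with a median of 1572 UMIs against 18894. Outside the macrophage-sum set, control cells under 5000 UMIs held 693 CPM of the class I genes against 460 CPM in deeper cells, and stimulated cells, with almost no macrophage RNA, held 472 against 345 CPM.

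**Figure D4:**
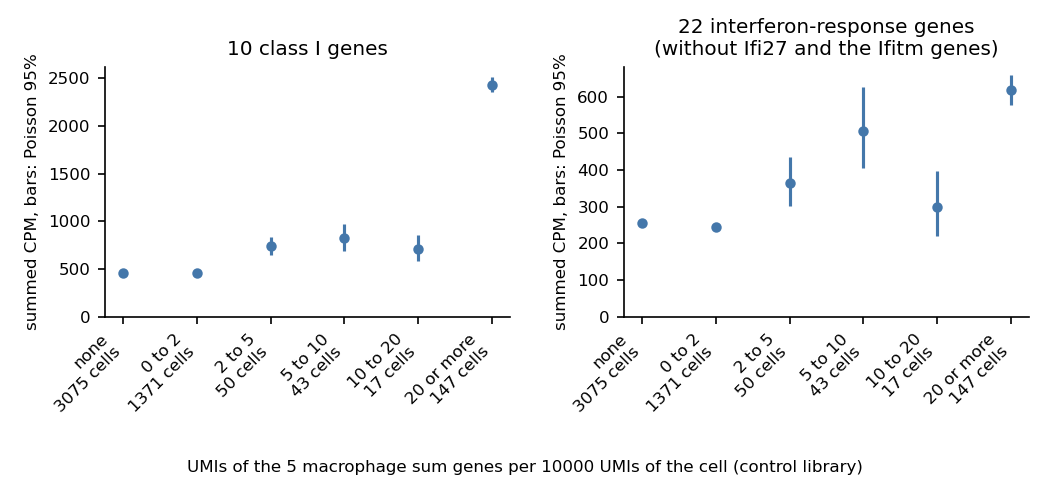
Summed CPM of the 10 class I genes (left) and of 22 interferon-response genes, leaving out Ifi27 and the Ifitm genes (right), in control cells grouped by their UMIs of the 5 macrophage sum genes per 10000. Bars are exact Poisson 95% intervals and cell numbers stand under each group. The class I level is 463 CPM at none and 2432 CPM at 20 or more.

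To see how the genes were spread over cells, each cell outside the macrophage-sum set with at least 5000 UMIs was thinned to 5000, which left 3951 control and 6708 stimulated cells and left out 588 and 758. B2m was seen in 73.8% (72.4 to 75.2%) of control cells and in 65.2% (64.0 to 66.3%) of stimulated cells at this depth. H2-D1 was seen in 15.6% and 8.57%, H2-K1 in 7.47% and 4.04%, Isg15 in 9.14% and 5.32%, and Ifi27l2a in 4.73% and 1.15%. Ifitm2 went the other way, at 82.3% and 95.5%. Lyz2, a macrophage gene at 19190 CPM in macrophage-sum cells, gave a UMI in 16.1% of these other control cells and in 0.209% of the stimulated cells at the same depth. Of the 3′ windows of Lyz2, 63.6% also match another gene, Lyz1. The source of these UMIs was not tested, so a UMI was not taken by itself to show that a cell expressed a gene. For H2-D1, at 593 CPM in macrophage-sum cells, the carried part worked out above, with the limit given there, is 2.57% of the level. Without thinning, H2-D1 was seen in 46.0% and 24.96% of the same cells, and Ifi27l2a in 11.2% and 2.92%. Psmb8 was seen in 2.40% of control and 3.22% of stimulated cells when thinned and in 10.1% and 9.23% when not, so its order followed the depth. Ifitm1 was seen in 0.329% of control and 2.56% of stimulated cells.

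In sum the class I genes, mainly B2m, were seen in most cells, while part of the interferon response lay in few. The 10 class I genes summed to a mean of 2.35 UMIs per control cell and 1.71 per stimulated cell, and 14.5% and 21.3% of cells held none. B2m alone gave 1.65 and 1.18 of these UMIs per cell. The 22 interferon-response genes left after setting aside Ifi27 and the Ifitm genes, a choice made after their levels were seen, summed to 1.34 and 0.946 UMIs per cell. The 10% of cells with most of these UMIs held 45.1% of them among control and 45.6% among stimulated cells. At least 10 UMIs of them were held by 41 control cells (1.04%) and 44 stimulated cells (0.656%), and the most in a cell was 58 and 55. Such cells were therefore found in both libraries. The contrast with class I depends on which genes are set aside. With all 26 interferon-response genes, 0.430% of control and 0.0596% of stimulated cells held none. The 10% of cells with most UMIs of the 26 held 26.8% and 23.3% of them, against 29.11% and 29.08% for the class I genes. The variance over the mean per cell, which is 1 for counts scattered at random, was 5.28 for Ifit1, 3.28 for Isg15 and 3.46 for Rsad2 in the control library and 4.92, 2.90 and 2.55 in the stimulated library. For Isg20, Irf1 and Irf9 it was between 0.993 and 1.09 in both libraries, and for Ifit2 it was 1.19 and 1.04. The control value of Rsad2 rests on 13 UMIs, 6 of them in 1 cell. A high value does not by itself place a gene in few cells. Ifitm3, seen in 95.4% and 98.0% of cells, was at 3.35 and 2.94, and Col1a1 was at 4.93 and 2.72.

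**Figure D5:**
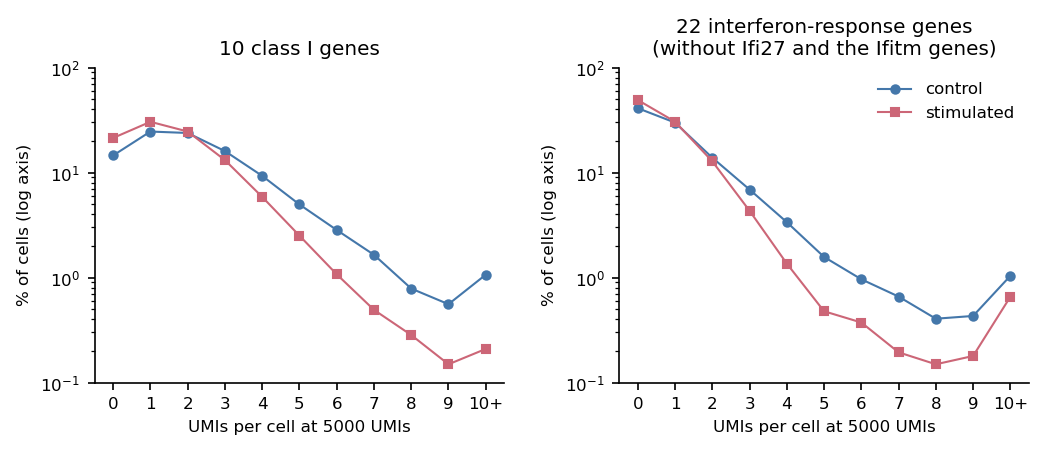
Percent of cells (log axis) by their UMIs of the 10 class I genes (left) and of the 22 interferon-response genes without Ifi27 and the Ifitm genes (right), each cell thinned to 5000 UMIs, in the control (circles) and stimulated (squares) library without macrophage-sum cells. The last point holds cells with 10 or more UMIs, 1.04% of control and 0.656% of stimulated cells on the right.

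Cells with a UMI of Ifit1 or Ifit3, also picked after the values were seen, held several other response genes more often. At 5000 UMIs there were 157 such control cells, 3.97%, and 165 stimulated cells, 2.46%. Isg15 was seen in 42.7% (34.8 to 50.8%) of them and in 7.75% of the other control cells, and in 38.8% (31.3 to 46.7%) and 4.48% in the stimulated library. Irf7 was seen in 11.5% against 1.66% of control cells and in 15.2% against 1.35% of stimulated cells. Rsad2 had 84.6% of its 13 control UMIs and 72.2% of its 36 stimulated UMIs in these cells. Bst2 was seen in 54.1% against 26.5% of control cells and in 46.7% against 18.5% of stimulated cells. H2-D1, H2-K1 and H2-T23 were each seen more often in these cells in the control library. In the stimulated library the interval of each included the share of the other cells. H2-D1 was seen in 21.7% (15.5 to 28.9%) against 15.4% of control cells and in 7.88% (4.26 to 13.1%) against 8.59% of stimulated cells. H2-K1 was seen in 12.7% (7.96 to 19.0%) against 7.25% of control cells and in 3.64% (1.35 to 7.75%) against 4.05% of stimulated cells. H2-T23 was seen in 10.2% (5.94 to 16.0%) against 4.38% of control cells and in 6.67% (3.38 to 11.6%) against 3.81% of stimulated cells. Other class I genes were seen more often in these cells in the stimulated library too. Psmb8 was seen in 12.1% (7.56 to 18.1%) against 2.996% of stimulated cells. Tapbp was at 17.6% (12.1 to 24.3%) against 6.89%, and Tap1 at 4.85% (2.12 to 9.33%) against 1.41%. For B2m, Psmb9, Psmb10 and Tap2 the stimulated interval included the share of the other cells. Psmb10 was seen in 18.5% against 18.3% of control cells, and Col1a1 in 98.7% against 97.8%. Lyz2 was seen in 12.1% (7.45 to 18.3%) of these control cells and in 16.2% of the others. The cells were picked by genes of the list, so these shares describe them and carry no test.

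The levels also moved with the state of the cells. Cycling cells, with at least 5 UMIs per 10000 of 12 cell cycle genes, were 23.6% of kept control cells and 40.1% of kept stimulated cells. Outside the macrophage-sum set, the class I genes summed to 390 CPM in cycling and 489 CPM in other control cells, and to 310 and 374 CPM in the stimulated library. Isg15 was at 18.3 and 34.4 CPM in the control and at 13.4 and 18.6 CPM in the stimulated library. H2-D1 was at 33.6 and 36.5 CPM and at 19.6 and 19.6 CPM, so it was lower in the stimulated library within both kinds of cell. Cells were also ordered, within each library, by their sum of smooth muscle genes, which were at 4429 CPM (control) and 1304 CPM (stimulated). From the lowest to the highest tertile of that sum, B2m went from 275 to 426 CPM in the control and from 239 to 264 CPM in the stimulated library. Over the same tertiles Ifi27l2a was at 10.6 and 26.1 CPM in the control, and at 2.87 and 2.41 CPM in the stimulated library. Ifitm1 was at 9.53 and 2.59 CPM in the stimulated library, higher in the lowest tertile. Ifi27l2a was lower in the stimulated library in both of these tertiles. The tertiles were cut in each library separately, so those of the same name were not matched in smooth muscle level. The part of cell state in the differences between the libraries was not tested beyond these values.

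Interferons themselves were all but absent from the counts. Of 21 interferon genes, 20 had no UMI in either library, and Ifnz had 35 and 28 UMIs, with 81.8% of its 3′ windows matching other genes. Among the genes without a UMI, Ifna6, Ifna1 and Ifna15 also had 81.8%, 72.7% and 54.55% of their 3′ windows matching other genes. A count of 0 is less certain for these, while no window of Ifnb1 or Ifng matched another gene. For a gene without a UMI the floor is 3 counts in a library. The receptor chains Ifnar1 and Ifngr1 and the kinase Jak1 were at similar levels in both libraries. Ifnar1 was at 16.3 and 16.3 CPM, Ifngr1 at 18.4 and 18.9 CPM and Jak1 at 65.1 and 64.6 CPM. Of 14 receptor and signal genes 12 were compared, none was lower and 1 was higher, where 12% of all genes were lower and 7.75% higher. The higher gene was Socs3, a feedback inhibitor of cytokine receptors, at 27.99 and 50.9 CPM, a fold of 1.82 (1.74 to 1.91). Among the 12 genes compared, Stat3 was the most counted, at 106 and 107 CPM. Ifnar2, the other type I receptor chain, had the lowest fold, 0.742 (0.696 to 0.790), and 24.1% of its 3′ windows match another gene. Irf8, a factor of myeloid cells, was 8.05-fold lower with all kept cells and 1.93-fold lower (1.25 to 3.02) without macrophage-sum cells, at a mean under 5 CPM.

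Of 12 nucleic acid sensors 8 were compared, 1 was higher and none lower, where 7.75% of all genes were higher and 12% lower. Trim25, a ubiquitin ligase acting on the RNA sensor RIG-I, was at 9.65 and 14.6 CPM, a fold of 1.51 (1.39 to 1.64). Tmem173, which encodes the DNA-sensing adaptor STING, was at 22.9 and 22.96 CPM, and Zbp1, a sensor of left-handed nucleic acid, had the lowest fold, 0.766 (0.695 to 0.843). Of 50 further interferon-stimulated genes 48 were found and 15 were compared with all kept cells. Of these 4 were higher and 2 lower, against 7.75% and 12% of all genes. The same 6 were past the fold without macrophage-sum cells. Ifi204, a DNA-binding protein of the p200 family, was at 5.07 and 27.7 CPM, 5.46-fold higher (4.95 to 6.04). Ifi27l2b, a close relative of Ifi27l2a, was at 12.2 and 0.307 CPM, 39.6-fold lower (28.4 to 56.8). Slfn2, Pml and Mnda were the other higher genes, at folds of 2.90, 1.91 and 2.33, and Irgm1 was 2.36-fold lower; every 3′ window of Mnda also matches another gene. Lgals9 was the most counted, at 45.7 and 43.4 CPM. Mx1 had 4 and 8 UMIs.

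Beyond the listed class I genes, 6 of 14 others were compared, 1 was higher and none lower, against 7.75% and 12% of all genes. H2-T22, a nonclassical heavy chain, was at 65.2 CPM (control) and 122 CPM (stimulated), 1.87-fold higher (1.82 to 1.93), opposite in direction to H2-K1 and H2-D1. Calr, the chaperone calreticulin, was the most counted, at 935 and 1004 CPM. Psme2, a proteasome activator subunit, had the lowest fold, 0.787 (0.763 to 0.812), and 62.6% of its 3′ windows match another gene. Nlrc5, the class I transactivator, had 15 and 8 UMIs. The standard catalytic proteasome subunits, which the immunoproteasome subunits replace, were between the thresholds. Psmb6 was at 240 and 188 CPM, Psmb5 at 214 and 167 CPM and Psmb7 at 120 and 102 CPM. Without macrophage-sum cells the sum of Psmb5, Psmb6 and Psmb7 was 571 and 457 CPM, a fold of 0.8004, and that of Psmb8, Psmb9 and Psmb10 was 48.8 and 50.4 CPM, a fold of 1.03. Of 7 class II genes 1 was compared with all kept cells, H2-DMb1, at 9.35 and 1.21 CPM, 7.72-fold lower (6.45 to 9.28). It was at 8.71 and 1.21 CPM without macrophage-sum cells, where its mean fell under 5 CPM. Of the 3′ windows of H2-DMb1, 21.2% also match another gene, H2-DMb2.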

How the data were processed

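The authors deposited, for each of 2 droplet 3′ libraries of cultured mouse lung fibroblasts, a sparse matrix of raw UMI counts per gene and barcode. Cell Ranger 3.0.2 stands in the headers of these files; Cell Ranger 1.3.1 and Seurat 3.0.0 are the versions in the submitters' processing notes. Build, annotation and barcode filter: not given in the sources used here. Groups come from the sample titles.

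Counts were summed over kept cells (at least 500 genes, at most 20% of UMIs in 13 mitochondrial genes) and divided by the total, 88573140 control and 117193148 stimulated UMIs, to give CPM. A fold divides the stimulated by the control CPM; its 95% interval is the exact conditional-Poisson one. Shares of cells have exact binomial intervals, and a gene at 0 has a floor of 3 counts. Genes averaging 5 CPM or more were compared over the whole table, and a gene was called at 1.5-fold. The interval of a median is an order-statistic interval over genes. No p-value was computed, and no doublet caller was run, so doublets remain. Read sharing was found with minimap2 2.31, matching 90-base windows, every 30 bases, of the last 400 bases of GENCODE M21 transcripts with up to 2 mismatches. TMM factors came from edgeR 4.0.16; the rest ran in Python 3.11.15 with scipy 1.17.1. The fold and its interval were tested on simulated Poisson counts, the error that the interval assumes. That checks the calculation only, not whether the interval holds for these counts.

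The 36 genes, the companion lists and the cell filter were chosen with earlier results of these data known. All 36 genes are named; of each companion list, the most counted gene and the largest fold each way are named. The interferon receptors, Irf8, Slfn2, Pml, Mnda, Irgm1, Mx1, Nlrc5 and the standard proteasome subunits were named after their values were seen, as were the groups of cells by Ifit1 or Ifit3 and by smooth muscle genes. Alternatives covered scaling, filters, fold, thinning, cell sets and read sharing.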

Additional observations from a re-analysis of the deposited data

How the results depend on the processing

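With 1 library per group no replicate could be left out. No paired analysis was possible because each group has 1 library and the labels give no replicate numbers. The counts given here hold with all kept cells and without macrophage-sum cells unless said otherwise, against 2 genes higher and 7 lower in the report. TMM scaling left 4 lower, because it raised every fold. Leaving out genes with at least 10% of their 3′ windows shared left 17 genes compared. H2-K1, H2-D1 and H2-T23 were among those dropped, so Tapbp was the only lower class I gene left. A mean of at least 20 CPM left 10 genes compared, 1 higher and 3 lower, where 5.97% and 11.96% of all genes were with all kept cells. Keeping every gene with at least 3 UMIs gave 4 of 36 higher, with Ifit2 and Ifitm1 added, and 9 lower (8 without macrophage-sum cells), where 15.1% and 23.1% of all genes were higher and lower with all kept cells. A 2-fold threshold gave 1 higher, and 3 lower with all kept cells or 2 lower without macrophage-sum cells, where 3.30% and 5.05% of all genes were past it with all kept cells. Thinning to 5000 UMIs, averaging the CPM of each cell, and leaving out cycling cells each gave 1 higher, since Stat2 went under 1.5-fold; leaving out mesothelial-sum cells did so with all kept cells only. The cause was not tested. Isg15, Ifi27l2a, Ifitm2, H2-K1 and H2-D1 were past 1.5-fold the same way under all 7 alternatives for all kept cells and all 9 without macrophage-sum cells that changed the fold. The median stayed between -0.55 and -0.22 under every alternative run, also over the same genes, a check added after seeing the data. Of 336 folds of single genes under alternatives, 268 moved little, 68 moved more than their counting interval and 0 of those called changed direction. The shares of cells with a UMI of B2m, H2-D1, H2-K1, Psmb8, Isg15, Ifi27l2a and Ifitm2 were higher at 10000 UMIs and unthinned than at 5000. Depth limits the 16 genes under 5 CPM, whose folds rest on as few as 16 control and 29 stimulated UMIs, in Oas1a without macrophage-sum cells.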
